A study of Rattus norvegicus with 24 samples.

Results

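Muscle atrophy regulators were followed in the urethra of rats after simulated vaginal delivery (SVD). The 7 genes were taken from the table of normalized counts by their symbols, Fbxo32, Trim63, Foxo1, Foxo3, Mstn, Gadd45a and Klf15, and each symbol was found on 1 of the 32883 rows. All rats were adult virgin Sprague-Dawley females, and all of them underwent SVD, a crush of the pudendal nerve combined with distension of the vagina. Afterwards they were injected into the aorta with saline, with allogeneic mesoangioblasts (MABs-allo, labelled WT), or with mesoangioblasts that overexpressed VEGF (MABs-allo-VEGF, labelled VEGF OE). Urethras were collected 3d or 7d later, which gave 6 groups of 4 samples. There was no group without SVD, so every value is that of an injured urethra. Mesoangioblasts are vessel-associated progenitors of skeletal muscle. Both kinds were grown from the hind-limb muscle of a rat other than the host, and the paper does not state whether they shared 1 line. They carried a lentiviral reporter under the CMV promoter, and in MABs-allo-VEGF a second lentivirus drove VEGF from the SFFV promoter. Because donor and host were both rats, the transcripts of the injected cells and of the urethra cannot be told apart.

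The wall of the urethra holds the external sphincter, which is skeletal muscle, around layers of smooth muscle and an epithelium. When skeletal muscle loses its nerve or is starved or inflamed, its fibres break down their own proteins through the ubiquitin-proteasome system and through autophagy. Fbxo32 (atrogin-1) and Trim63 (MuRF1) are the muscle ubiquitin ligases classically raised in atrophy. Foxo1 and Foxo3 are the transcription factors that drive both ligases when Akt signalling is low. Klf15 is a transcription factor induced by glucocorticoids that acts on the same pair, Gadd45a is a stress gene induced in denervated fibres, and Mstn (myostatin) is a secreted inhibitor of muscle growth.

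The promoters of Trim63 and Foxo1 are shown because one is a textbook FoxO target and the other encodes the factor. RefSeq sequences of the GRCr8 build, from 250 bases before to 50 bases after the start of the gene, were found for 4 of the 7 genes, Trim63, Foxo1, Gadd45a and Klf15. Fbxo32, Foxo3 and Mstn had no entry. Capitals mark GTAAACA, the core of a FoxO element, and AGAACA, a half-site of the glucocorticoid receptor, searched on both strands, so that they read TGTTTAC and TGTTCT where the match is on the opposite strand. The 300 bases of Trim63 lie at chr5:151816986-151817285 on the plus strand, and those of Foxo1 at chr2:138462724-138463023 on the plus strand.
Trim63: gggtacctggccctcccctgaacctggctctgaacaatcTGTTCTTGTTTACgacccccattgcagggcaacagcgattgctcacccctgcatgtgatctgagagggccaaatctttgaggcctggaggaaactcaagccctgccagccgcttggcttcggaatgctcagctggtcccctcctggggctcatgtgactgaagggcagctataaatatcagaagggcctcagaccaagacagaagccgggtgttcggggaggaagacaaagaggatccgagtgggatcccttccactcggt
Foxo1: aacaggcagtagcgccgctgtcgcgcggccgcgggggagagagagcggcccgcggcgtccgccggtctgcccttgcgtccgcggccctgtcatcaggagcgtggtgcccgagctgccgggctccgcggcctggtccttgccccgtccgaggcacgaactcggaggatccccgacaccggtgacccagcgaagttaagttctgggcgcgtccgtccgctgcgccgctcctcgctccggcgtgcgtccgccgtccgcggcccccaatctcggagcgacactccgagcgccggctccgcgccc
In the Trim63 promoter a glucocorticoid receptor half-site began 211 bases before the start of the gene, and a FoxO element began 205 bases before it, directly after it and without overlap. Of all 33469 promoters of this length, 3.78% held the FoxO element and 20.7% the receptor half-site. Neither was found in the windows of Foxo1, Gadd45a and Klf15. The E-box, CANNTG, is held by 72.1% of promoters, and it occurred at 3 places in Trim63, at 1 in Gadd45a and at 1 in Klf15, none of which overlapped the 2 motifs in capitals. These matches describe the letters of the windows only. For the receptor only the single half-site was searched, so 20.7% is not the share of promoters with a longer element.

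The libraries held 2170695 to 10166052 counted reads, with a median of 5246798. The samples of 3d were shallower after cell injection than after saline, with 2170695 to 4491900 reads in MABs-allo and 3042531 to 4261098 in MABs-allo-VEGF against 4851797 to 5249467. Markers of skeletal muscle fibres were present in every group, none of the 24 measured being at 0 throughout a group. Their summed normalized count ranged from 89578 to 369996 in saline, from 200330 to 714814 in MABs-allo and from 210052 to 419229 in MABs-allo-VEGF at 3d, and from 154171 to 494091 in the groups of 7d. Saline replicate 6 and MABs-allo-VEGF replicate 4 of 3d stood apart from their groups in earlier work on these data, and so the main results are also given without both of them. Saline replicate 8 lay farther from its group than replicate 6, by the chi-square of its reads against each other saline library of 3d, which divided by its degrees of freedom was 79.2 to 118.9 for replicate 8 and 56.2 to 118.9 for replicate 6. Leaving out replicate 6 raised the fold changes of Fbxo32 and Foxo1 over saline and leaving out replicate 8 lowered them, so the values without replicate 8 stand beside the others. Saline replicate 8 of 3d had the lowest summed level of the 12 smooth muscle markers in its group (28033 against 123684 to 242309), the lowest of the 11 epithelial markers (2861 against 27839 to 30992) and the highest of the 16 adipocyte markers (38452 against 5347 to 13605). The part that these differences in depth and markers play in the results was not tested. Fewer cells of a type and less RNA per cell cannot be told apart in such bulk samples.

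Fbxo32 and Foxo1 were called higher 3d after SVD in MABs-allo than in saline. These calls were lost without 1 of the saline libraries of 3d, and in a fit of only the groups compared. Both genes were also called higher at 3d than at 7d in MABs-allo and in MABs-allo-VEGF. In saline both were higher at 3d too, by log2 fold changes of 1.80 and 1.92, which DESeq2 and edgeR called but limma did not. The effect of the cells at 3d less that at 7d passed for neither gene. Klf15 was called lower at 3d than at 7d in MABs-allo-VEGF, a call that depended on single libraries. Trim63, the partner of Fbxo32 in most accounts of atrophy, passed limma's test in none of the comparisons, nor did Gadd45a, Mstn or Foxo3. Calls needed a Benjamini-Hochberg adjusted p below 0.05 together with a fold change larger than 1 in size, in limma fitted on log2(normalized count + 1) of all genes. All fold changes below are on this log2 scale and are given ± SE, and all 7 genes passed the filter on low counts.

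Fbxo32 is the F-box subunit that brings substrates to its ubiquitin ligase complex. At 3d its normalized counts in saline replicates 6, 8, 9 and 10 were 3285, 388, 1980 and 2502. In MABs-allo they were 6866, 4459, 6471 and 8273, all above every saline sample. MABs-allo-VEGF gave 6283, 3467, 6372 and 1745, so that 3 of 4 lay above saline and replicate 4 lay within it. At 7d saline samples had 490, 558, 445 and 352, MABs-allo samples 1137, 1722, 357 and 913, and MABs-allo-VEGF samples 1730, 1018, 351 and 763. By group means the order was MABs-allo, MABs-allo-VEGF and saline of 3d, then MABs-allo, MABs-allo-VEGF and saline of 7d, and each neighbouring pair overlapped.

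The 3d samples of MABs-allo averaged 6517 ± 1575 (SD, n = 4) against 2039 ± 1224 in saline, a log2 fold change of 2.0 ± 0.56 (limma, adjusted p = 0.0222). Without both libraries named above it was 2.35 (adjusted p = 0.00481). It was 1.33 without saline replicate 8, the lowest of its group (adjusted p = 0.115), and the call was also lost without MABs-allo replicate 1 (adjusted p = 0.060) or replicate 3 (adjusted p = 0.0546). In edgeR it was 1.55 (adjusted p = 0.0539), and a fit of only the 2 groups also lost it (adjusted p = 0.077). MABs-allo-VEGF averaged 4467 ± 2261, and its fold change over saline of 1.31 ± 0.56 did not pass (limma, adjusted p = 0.217). Without both libraries the latter was 2.06 and passed (adjusted p = 0.0226), and without saline replicate 8 it was 0.64 (adjusted p = 0.687). MABs-allo-VEGF against MABs-allo gave −0.69 ± 0.56, with a 95% interval from −1.85 to 0.47, so a difference between the cell types was not resolved.

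From 7d to 3d, Fbxo32 was higher by 2.83 ± 0.56 in MABs-allo (limma, adjusted p = 0.000755) and by 2.25 ± 0.56 in MABs-allo-VEGF (limma, adjusted p = 0.00678), and in neither did the days overlap. Saline differed by 1.80 ± 0.56 between the days and did not pass (limma, adjusted p = 0.072). Without saline replicate 8 of 3d that difference was 2.48 (adjusted p = 0.00182), and without both libraries it was 1.45 (adjusted p = 0.241). The effect of the cells at 3d less that at 7d was 1.03 ± 0.80 for MABs-allo (limma, adjusted p = 0.586) and 0.45 ± 0.80 for MABs-allo-VEGF (limma, adjusted p = 0.916). An effect particular to 3d was therefore not shown.

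**Figure D1:**
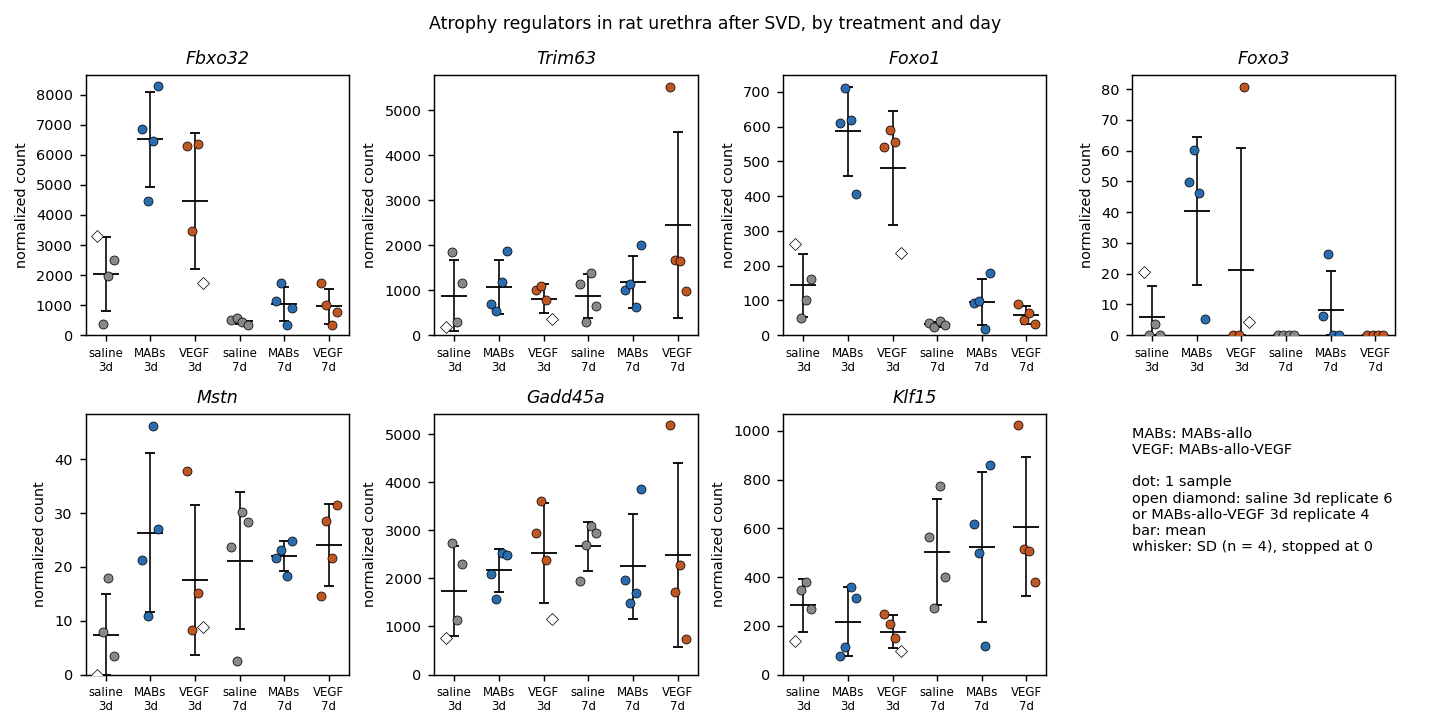
Normalized counts of the 7 genes in each of the 24 samples, 1 panel a gene with a linear axis from 0, with the group mean (bar) and SD (whisker, n = 4, stopped at 0). For Fbxo32 the 4 MABs-allo samples of 3d lie between 4459 and 8273, all above saline of 3d, whereas the groups of Trim63 overlap throughout. Open diamonds are saline replicate 6 and MABs-allo-VEGF replicate 4 of 3d.

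Trim63 is a RING-finger ubiquitin ligase that binds the sarcomere. In saline of 3d it had 182, 1854, 293 and 1172 normalized counts, and replicate 8, the lowest for Fbxo32, was the highest here. MABs-allo of 3d gave 689, 531, 1182 and 1882, and MABs-allo-VEGF gave 995, 1100, 787 and 365. At 7d the values were 1133, 304, 1390 and 648 in saline and 1004, 1136, 631 and 1996 in MABs-allo. Those of MABs-allo-VEGF at 7d were 5521, 1666, 1638 and 984. Each group overlapped its neighbour in the order of the means, which ran from 812 ± 325 in MABs-allo-VEGF of 3d to 2452 ± 2070 (SD, n = 4) in MABs-allo-VEGF of 7d.

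At 3d Trim63 differed from saline by 0.70 ± 0.64 in MABs-allo, with a 95% interval from −0.63 to 2.03, and by 0.36 ± 0.64 in MABs-allo-VEGF (limma, adjusted p = 0.478 and 0.82). The latter turned to −0.11 in DESeq2 and −0.23 in edgeR, and to −0.20 without saline replicate 6. MABs-allo of 3d against 7d gave −0.20 ± 0.64, and MABs-allo-VEGF of 3d against 7d gave −1.39 ± 0.64 (limma, adjusted p = 0.131), which passed in DESeq2 alone (−1.60, adjusted p = 0.0441). The 95% interval in MABs-allo between the days ran from −1.53 to 1.12, so that equal levels were not shown.

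The ratio of Fbxo32 to Trim63 within a sample does not depend on how libraries are scaled, and it is used here to compare samples, not the level of 1 gene with that of the other. At 3d it ran from 4.40 to 9.97 in MABs-allo and from 3.15 to 8.10 in MABs-allo-VEGF. At 7d it ran from 0.457 to 1.52 and from 0.214 to 0.776, with no overlap between the days for either kind of cell. In saline it was 18, 0.209, 6.76 and 2.13 at 3d and 0.321 to 1.84 at 7d, so replicate 8 of 3d overlapped the later day. The median for saline was 4.45 at 3d and 0.488 at 7d. All 3 treatments thus had a higher median of this ratio at 3d than at 7d.

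Foxo1 encodes a FoxO factor that Akt keeps out of the nucleus. In saline of 3d its normalized counts were 262, 51.0, 100 and 162. MABs-allo gave 611, 711, 619 and 407, all above every saline sample, and MABs-allo-VEGF gave 541, 592, 555 and 236, of which replicate 4 lay within the range of saline. At 7d saline had 33.8, 24.9, 40.2 and 28.3, MABs-allo had 92.9, 99.3, 16.7 and 178, and MABs-allo-VEGF had 90.7, 42.8, 65.2 and 31.5. The group means fell in the same order as those of Fbxo32, and each neighbouring pair again overlapped. The lowest values rest on few reads, 9 to 12 per sample in saline of 7d.

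MABs-allo averaged 587 ± 128 (SD, n = 4) at 3d against 144 ± 90.8 in saline, a fold change of 2.23 ± 0.56 (limma, adjusted p = 0.0141). It was 2.60 without both libraries (adjusted p = 0.00262), and without saline replicate 8 it was 1.82 and no longer passed (adjusted p = 0.0736), as in a fit of only the 2 groups (adjusted p = 0.0608). MABs-allo-VEGF averaged 481 ± 165, with a fold change over saline of 1.89 ± 0.56 that did not pass (limma, adjusted p = 0.104). Without saline replicate 6 it was 2.26 (adjusted p = 0.0221), without MABs-allo-VEGF replicate 4 it was 2.20 (adjusted p = 0.0258), and without both it was 2.57 (adjusted p = 0.00629). Without saline replicate 8 it was 1.48 (adjusted p = 0.446). Between the kinds of cell the difference was −0.35 ± 0.56, with a 95% interval from −1.50 to 0.81.

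Against 7d, Foxo1 was higher at 3d by 2.96 ± 0.56 in MABs-allo (limma, adjusted p = 0.000533) and by 3.06 ± 0.56 in MABs-allo-VEGF (limma, adjusted p = 0.000691). In saline the difference was 1.92 ± 0.56 with no overlap of the days, and it did not pass (limma, adjusted p = 0.0533). Without saline replicate 8 it was 2.34 (adjusted p = 0.00942), but it moved both ways, from 1.555 to 2.335, when 1 library was left out. The effect of the cells at 3d less that at 7d was 1.04 ± 0.79 for MABs-allo (limma, adjusted p = 0.581) and 1.14 ± 0.79 for MABs-allo-VEGF (limma, adjusted p = 0.735).

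Across the 12 samples of 3d, Foxo1 and Fbxo32 had a Pearson's r of 0.88 and a Spearman's rho of 0.72 on the log2 scale, and across the 12 of 7d an r of 0.67 and a rho of 0.61. Leaving out the 2 samples farthest from the median of Foxo1, r was 0.70 at 3d and 0.68 at 7d. Trim63 and Fbxo32 had an r of 0.02 at 3d and 0.52 at 7d, with a rho of 0.29 and 0.41. Foxo1 and Trim63 had an r of 0.04 and a rho of 0.01 at 3d, but an r of 0.65 and a rho of 0.76 at 7d, about as high as Foxo1 with Fbxo32 on that day. Each r and rho pools 3 treatments whose means differ. Within MABs-allo of 3d the order was reversed, with Foxo1 at 407, 611, 619 and 711 where Fbxo32 was at 8273, 6866, 6471 and 4459. Within saline of 3d both genes had the same order. Over all 24 samples Fbxo32 and Foxo1 had an r of 0.917. Each had other genes more like it, such as Baz2b for Fbxo32 (0.979) and RGD1311703 for Foxo1 (0.967). A high r is therefore not particular to this pair. The samples share their libraries and their scaling, and these values are a description.

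**Figure D2:**
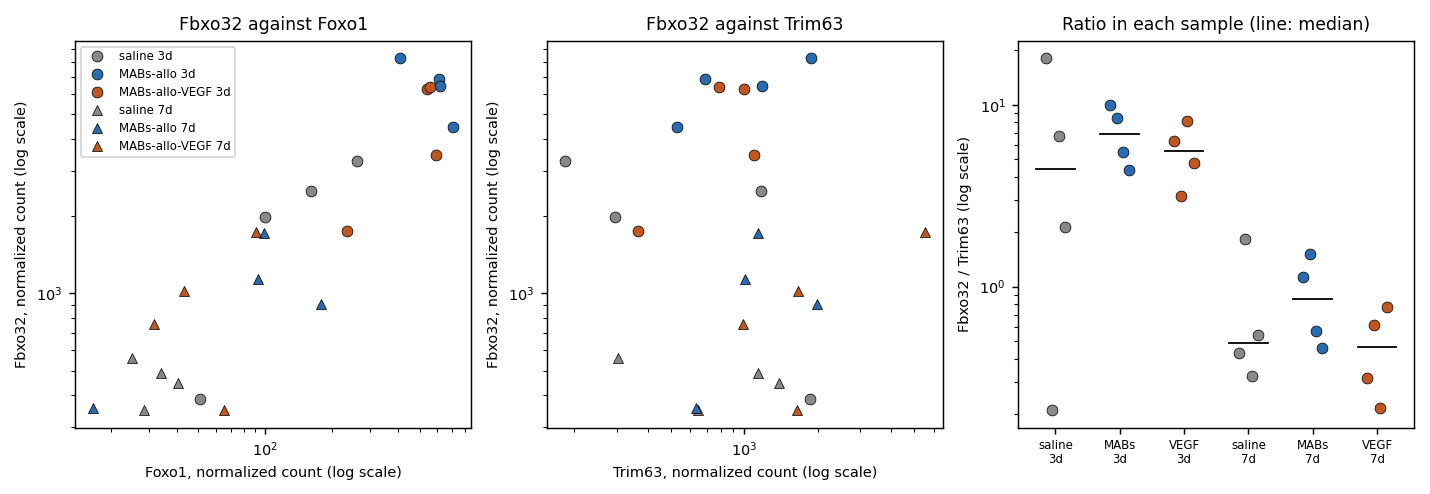
Fbxo32 against Foxo1 and against Trim63 in each of the 24 samples (normalized counts, log scales; dots are 3d, triangles 7d) and the ratio of Fbxo32 to Trim63 in each sample by group (log scale, line at the median). With the treatments pooled, samples high in Foxo1 are mostly high in Fbxo32 on both days, but the MABs-allo samples of 3d run in reverse order. The ratio lies between 3.15 and 9.97 in all cell-treated samples of 3d and between 0.214 and 1.52 in those of 7d.

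Foxo3, the other FoxO factor, was read only 0 to 16 times per sample, and its values are near the limit of detection. At 3d it had 20.7, 0, 3.57 and 0 normalized counts in saline, 49.7, 60.2, 46.2 and 5.42 in MABs-allo and 0, 0, 80.7 and 4.45 in MABs-allo-VEGF. At 7d all 4 saline and all 4 MABs-allo-VEGF samples were at 0, and MABs-allo had 6.20, 26.5, 0 and 0. Where no reads were found, a level of up to 3 reads in a sample is allowed for by counting error alone. MABs-allo against saline at 3d gave 3.30 ± 1.27 (limma, adjusted p = 0.0777), which passed without saline replicate 6 (4.23, adjusted p = 0.0241) and without MABs-allo replicate 4 (4.06, adjusted p = 0.0396). MABs-allo of 3d against 7d gave 3.05 ± 1.27 (limma, adjusted p = 0.0711), and this passed without MABs-allo replicate 4 of 3d (3.81, adjusted p = 0.0332) or replicate 9 of 7d (4.01, adjusted p = 0.0237). MABs-allo-VEGF against saline at 3d gave 0.54 ± 1.27 and turned to −0.84 without MABs-allo-VEGF replicate 3, which held 16 of the group's reads, and to −0.01 without saline replicate 8 or 10. Folds of a gene with so few reads depend on the pseudocount.

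Klf15 had its lowest group means in the cell-treated samples of 3d. Its normalized counts were 138, 349, 379 and 271 in saline, 78.1, 115, 360 and 315 in MABs-allo and 249, 208, 151 and 98.0 in MABs-allo-VEGF. At 7d saline had 565, 271, 774 and 402, MABs-allo had 619, 500, 117 and 859, and MABs-allo-VEGF had 1023, 516, 509 and 378. Only in MABs-allo-VEGF did the days not overlap, with means of 177 ± 65.9 and 607 ± 285 (SD, n = 4) and a fall by 1.76 ± 0.55 at 3d relative to 7d (limma, adjusted p = 0.0264). That call was lost without MABs-allo-VEGF replicate 3 of 3d (−1.71, adjusted p = 0.0621), replicate 4 of 3d (−1.50, adjusted p = 0.0644) or replicate 6 of 7d (−1.47, adjusted p = 0.0891), and without both libraries it was −1.50 (adjusted p = 0.0579). MABs-allo gave −1.23 ± 0.55 (limma, adjusted p = 0.0943), and −1.84 without its replicate 11 of 7d (adjusted p = 0.00976). MABs-allo and MABs-allo-VEGF differed from saline at 3d by −0.57 ± 0.55 and −0.67 ± 0.55 (limma, adjusted p = 0.505 and 0.556).

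Adipocytes also express Klf15, and the summed level of the 16 adipocyte markers was 5020 to 9787 in MABs-allo and 6296 to 12618 in MABs-allo-VEGF at 3d, against 14526 to 119376 and 8905 to 18452 at 7d. In MABs-allo of 3d and in MABs-allo of 7d 1 of the 16 was at 0 throughout the group, and in MABs-allo-VEGF none was. Their part in the difference of Klf15 was not tested.

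Gadd45a was well measured, with 221 to 1432 reads per sample, and passed in no comparison. At 3d it had 761, 2748, 1129 and 2302 normalized counts in saline, 2087, 1565, 2520 and 2495 in MABs-allo and 2952, 3617, 2391 and 1149 in MABs-allo-VEGF. The 7d samples ranged from 1948 to 3094 in saline, from 1483 to 3855 in MABs-allo and from 744 to 5195 in MABs-allo-VEGF. MABs-allo differed from saline at 3d by 0.48 ± 0.46, with a 95% interval from −0.48 to 1.44, and MABs-allo-VEGF by 0.61 ± 0.46 (limma, adjusted p = 0.503 and 0.517). The 3 groups of 3d overlapped, and saline replicate 6 and MABs-allo-VEGF replicate 4 were the lowest of their groups.

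Mstn, the ligand, was read 0 to 11 times per sample. At 3d its normalized counts were 0, 7.84, 17.9 and 3.52 in saline, 21.3, 10.9, 46.2 and 27.1 in MABs-allo and 37.9, 8.33, 15.1 and 8.91 in MABs-allo-VEGF. They ranged from 2.49 to 30.1 in saline, from 18.4 to 24.9 in MABs-allo and from 14.5 to 31.5 in MABs-allo-VEGF at 7d. MABs-allo against saline at 3d gave 2.22 ± 0.82 (limma, adjusted p = 0.0663), which was 2.83 and passed without saline replicate 9 (adjusted p = 0.0428) and was 1.42 without both libraries (adjusted p = 0.193). MABs-allo-VEGF against saline gave 1.57 ± 0.82 (limma, adjusted p = 0.318). With 5 reads or fewer in each saline and MABs-allo sample of 3d, counting error is large beside these differences.

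Set against all 16287 genes tested, 2 of the 7 regulators were called in MABs-allo against saline at 3d, where 12.3% of genes were called. In the fit of only the 2 groups 0 of 7 and 5 of all genes were called. In MABs-allo of 3d against 7d 2 of 7 were called against 23.0% of all genes, a share near that of the table, and in MABs-allo-VEGF of 3d against 7d 3 of 7 against 15.3%. In saline of 3d against 7d 0 of 7 were called in limma against 3.19%, with Foxo1 and Fbxo32 at an unadjusted p below 0.05, and DESeq2 and edgeR each called both. The 520 genes behind this share were 22 without saline replicate 6 of 3d, 31 without both libraries and 39 without saline replicate 5 of 7d, but 1281 without saline replicate 8 of 3d and 1386 in DESeq2, and 0 in the fit of only the groups compared. MABs-allo-VEGF against saline at 3d gave 0 of 7 in limma against 0.0307%, again with Foxo1 and Fbxo32 at an unadjusted p below 0.05. DESeq2 called Foxo1 there (1.74, adjusted p = 0.0289) and edgeR called 0. Over all genes the split of the calls depended on the scaling. In MABs-allo against saline at 3d 1531 of 1997 called genes were higher, but 1253 of 2228 after quantile normalization and 1102 of 2123 after scaling to the same total, which moved the median of all genes from 0.07 to −0.14 and −0.19. Fbxo32 and Foxo1 stayed higher there, by 1.73 and 1.96 after scaling to the same total.

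**Figure D3:**
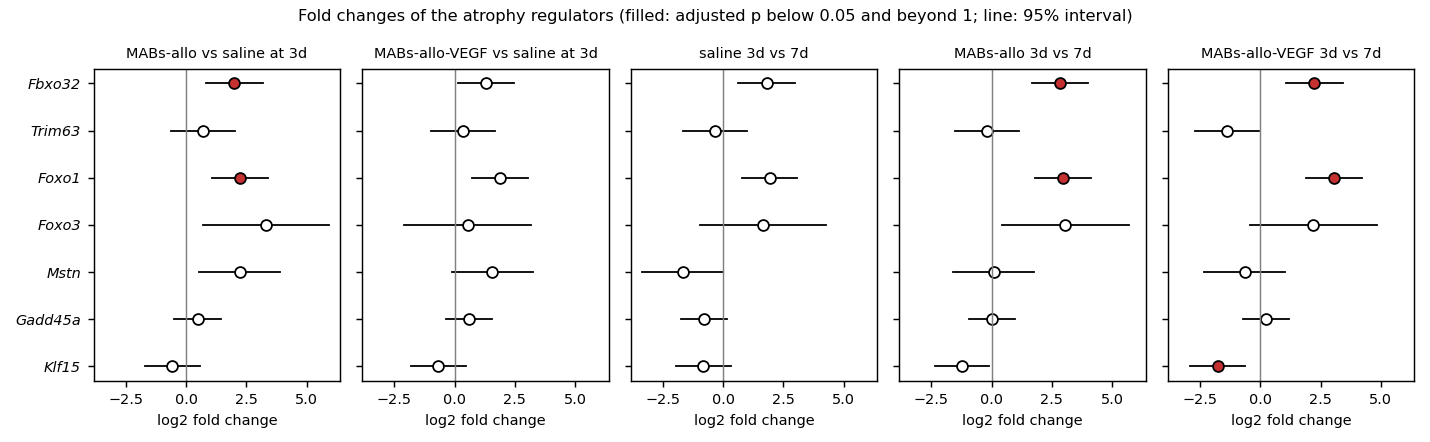
Log2 fold changes (dots) with 95% intervals (lines) of the 7 genes in 5 comparisons, filled where called (limma). Fbxo32 and Foxo1 are filled in MABs-allo against saline at 3d and in both cell treatments between the days, and Klf15 is filled on the lower side in MABs-allo-VEGF.

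The remaining comparisons called none of the 7 genes. MABs-allo-VEGF against MABs-allo at 3d called 0.00614% of all genes, and of the 7 only Foxo3 had an unadjusted p below 0.05 (−2.76 ± 1.27, limma, adjusted p = 0.783). At 7d 0% of genes were called in MABs-allo against saline, although 1014 genes had an unadjusted p below 0.05, and DESeq2 and edgeR called 0 each. Foxo1 was among the 1014, at 1.20 ± 0.56 (limma, adjusted p = 0.788). MABs-allo-VEGF against saline at 7d called 0% with 1033 genes at an unadjusted p below 0.05, among them Trim63 at 1.39 ± 0.64 (limma, adjusted p = 0.76), and there DESeq2 called 26 genes and edgeR 0. MABs-allo-VEGF against MABs-allo at 7d called 0% with 452 genes at an unadjusted p below 0.05, none of the 7 among them, while DESeq2 called 4 genes and edgeR 0. The tests of the difference between the effects at 3d and 7d called 0% of genes in MABs-allo, where the unadjusted p was below 0.05 for 2212 genes, and 0% in MABs-allo-VEGF, where it was for 1341. There DESeq2 called 78 genes and 1 gene, and edgeR 0 in both. Without both libraries 579 and 585 genes were called, with sample weights 367 and 376, and without saline replicate 6 of 3d 128 and 0, none of the 7 among them. DESeq2 and edgeR called none of the 7 in any of these comparisons.

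The other ubiquitin ligases and their partners are given from lists chosen with earlier results of these data known, by counts and medians beside those of all genes. A fit of only the 2 groups lost the calls named here for MABs-allo over saline at 3d, with adjusted p from 0.0608 to 0.0716 for Acvr2a, Smad4, Musk, Itch, Nedd4 and Wwp1. Of the 25 listed, 6 rose in MABs-allo over saline at 3d and 0 fell (median of the list 0.64, of all genes 0.07), 6 rose and 0 fell in MABs-allo of 3d against 7d, and 3 rose and 0 fell in MABs-allo-VEGF of 3d against 7d. These are 24% of the list beside 12.3% of all genes in the first comparison, 24% beside 23.0% in the second and 12% beside 15.3% in the third, so that between the days the list was called about as often as the table or less. Nedd4, a HECT ligase with many substrates, had medians of 30341 normalized counts in MABs-allo, 29575 in MABs-allo-VEGF and 12754 in saline at 3d, and rose by 1.27 in MABs-allo over saline (limma, adjusted p = 0.0127) and by 2.11 over 7d (limma, adjusted p = 8.24e-05). Itch, a related HECT ligase, had medians of 719, 628 and 122 and rose by 2.97 over saline in MABs-allo (limma, adjusted p = 0.0102). Wwp1 of the same family had medians of 988, 964 and 402 and rose by 1.44 (limma, adjusted p = 0.0134). Without saline replicate 8, 4 of the 25 were called in MABs-allo over saline, where 369 of 16295 genes were called. Nedd4 (1.03, adjusted p = 0.0635) and Wwp1 (1.07, adjusted p = 0.0693) did not pass there. Wwp1 was also lost without MABs-allo replicate 1 (adjusted p = 0.0518), and Nedd4 was within the threshold on fold change after scaling to the same total (0.998). In saline of 3d against 7d none of the 25 was called.

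The list of IGF1, Akt and mTOR signalling, which restrains the FoxO factors, had 8 of 27 genes higher and 1 lower in MABs-allo over saline at 3d (median 0.19). Between 3d and 7d 12 were higher and 3 lower in MABs-allo, 8 higher and 1 lower in MABs-allo-VEGF, and 2 higher and 0 lower in saline. The shares called were 33.3%, 55.6%, 33.3% and 7.41%, beside 12.3%, 23.0%, 15.3% and 3.19% of all genes. Sesn3, a stress-induced inhibitor of mTORC1, had medians of 10122 normalized counts in MABs-allo, 7493 in MABs-allo-VEGF and 1675 in saline at 3d and of 202 to 419 in the 3 groups of 7d. It rose by 4.66 from 7d to 3d in MABs-allo, by 3.86 in MABs-allo-VEGF and by 2.72 in saline (limma, adjusted p = 7.72e-05, 0.000504 and 0.0268), the last of which was lost without any 1 of 7 of its 8 libraries and was 1.88 without both libraries (adjusted p = 0.107). Igfbp5, a binding protein of the insulin-like growth factors, was higher at 3d in all 3 treatments, by 2.04, 1.52 and 1.96. Akt1 was lower by 1.12 at 3d than at 7d in MABs-allo, and its difference from saline at 3d of −0.75 lay within the threshold on fold change, as did the fall between the days without MABs-allo replicate 13 of 7d (−0.95). Without saline replicate 8, 1 of the 27 genes was called in MABs-allo over saline, where 369 of 16295 genes were called.

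For myostatin and activin signalling 3 of 23 genes were higher and 1 lower in MABs-allo over saline at 3d (median −0.17), 4 higher and 1 lower in MABs-allo of 3d against 7d, 4 higher and 0 lower in MABs-allo-VEGF and 1 higher in saline. The shares called were 17.4%, 21.7%, 17.4% and 4.35%, near the 12.3%, 23.0%, 15.3% and 3.19% of all genes, and the medians between the days were 0.33, 0.17 and 0.32 beside 0.06, 0.05 and 0.05 of all genes. Inhba, the activin A subunit, had medians of 693 normalized counts in MABs-allo, 484.5 in MABs-allo-VEGF and 170 in saline at 3d and of 3.4 to 18.3 at 7d, and was higher at 3d by 5.16, 5.07 and 4.44 (limma, adjusted p = 0.000639, 0.00117 and 0.0196), the last of which depends on the pseudocount at a median of 3.4 in saline of 7d. The last was lost without saline replicate 6, 9 or 10 of 3d or replicate 3 or 5 of 7d, and was 3.49 without both libraries (adjusted p = 0.107). Acvr2a, a receptor shared by activin and myostatin, and Smad4, the partner of the receptor-activated Smads, rose by 1.82 and 4.19 in MABs-allo over saline at 3d (limma, adjusted p = 0.00838 for each). Smad4 had a median of 338 in MABs-allo and of 12.5 in saline.

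Genes of the denervation response were called in a few cases. Of 20, 3 were higher and 0 lower in MABs-allo over saline (median 0.85), 6 higher and 1 lower in MABs-allo of 3d against 7d, 5 higher and 1 lower in MABs-allo-VEGF, and 1 higher in saline. The shares called were 15%, 35%, 30% and 5%, beside 12.3%, 23.0%, 15.3% and 3.19% of all genes. Musk, the kinase of the neuromuscular junction, had medians of 120 normalized counts in MABs-allo and 1.8 in saline at 3d and rose by 4.93 (limma, adjusted p = 0.0084), a fold that depends on the pseudocount at so low a level in saline. Myog, the myogenic factor that denervation induces, was higher at 3d than at 7d by 2.12 in MABs-allo and 1.62 in MABs-allo-VEGF (limma, adjusted p = 0.00208 and 0.02). Dach2, a repressor of Myog, was higher by 5.67 and 3.48 (limma, adjusted p = 0.000755 and 0.0317). The median of Dach2 was 0 in both of these groups at 7d, so its folds are set by the pseudocount. In MABs-allo-VEGF both depended on single libraries. Myog was lost without replicate 2 of 3d or replicate 7 or 12 of 7d (1.30 to 1.52), and Dach2 without replicate 1 or 3 of 3d or replicate 7, 11 or 12 of 7d (2.91 to 3.15). Without saline replicate 8, 1 of the 20 was called in MABs-allo over saline, where 369 of 16295 genes were called.

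Skeletal fibre markers were higher beside these genes in MABs-allo over saline at 3d, with 8 of 24 called and a median of 1.24, 4 of 24 without saline replicate 8 and 0 of 24 in the fit of only the 2 groups. The 8 were 33.3% of the list beside 12.3% of all genes. Over all genes, 369 of 16295 were called without saline replicate 8 and 5 of 16474 in the fit of only the 2 groups. The fibre proteins Acta1 (skeletal actin) and Ckm (muscle creatine kinase), differed there by 0.95 and 1.51 (limma, adjusted p = 0.22 and 0.0598). Between 3d and 7d 4 of the 24 were called in MABs-allo (median 0.23) and none in MABs-allo-VEGF (median −0.46) or in saline (median −0.63). The 4 were 16.7% of the list, below the 23.0% of all genes, and the 0 in MABs-allo-VEGF stand beside 15.3%. Leukocyte markers had 5 of 14 lower in MABs-allo over saline at 3d, 35.7% of the list beside 12.3% of all genes. Of these markers 2 were lower without saline replicate 8 and 0 in the fit of only the 2 groups. The part of the fibre and leukocyte markers in the results for Fbxo32 and Foxo1 was not tested.

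The glucocorticoid and fasting list, to which Klf15 belongs by its regulation, had more genes lower than higher at 3d. Of 21 genes 3 were higher and 10 lower at 3d than at 7d in MABs-allo (median −0.90, of all genes 0.06), and 2 were higher and 6 lower in MABs-allo-VEGF (median −0.94), which are 61.9% and 38.1% of the list beside 23.0% and 15.3% of all genes. Adipocyte markers moved in the same comparison in MABs-allo, with 11 of 15 lower and 1 higher (median −3.97), while in MABs-allo-VEGF 0 were lower and 1 was higher (median −0.57). The shares called were 80% and 6.67%, beside 23.0% and 15.3% of all genes. The part of the adipocyte markers in the result was not tested. In saline 0 of the 21 were called (median −0.65), with 3 lower in DESeq2 and 1 in edgeR. There 6 of 15 adipocyte markers were lower, 40% of the list beside 3.19% of all genes. The metallothioneins Mt2A and Mt1, which glucocorticoids and metals induce, were lower at 3d in MABs-allo by 4.0 and 3.44 (limma, adjusted p = 0.000164 and 0.000296). Their medians there were 681 and 758 normalized counts against 7019 and 5118 at 7d. Nr3c1, the glucocorticoid receptor itself, was higher at 3d by 1.64 in MABs-allo and 1.25 in MABs-allo-VEGF (limma, adjusted p = 0.000128 and 0.00145). Against saline at 3d 2 of the 21 were higher and 0 lower in MABs-allo, 9.52% of the list beside 12.3% of all genes. After scaling to the same total 2 were higher and 3 lower.

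Autophagy and lysosome genes gave few calls. In MABs-allo over saline at 3d 1 of 21 was higher and 0 lower, but 0 higher and 4 lower after scaling to the same total, and the median of −0.16 lay below that of all genes. The shares called were 4.76% there, 9.52% in MABs-allo and 4.76% in MABs-allo-VEGF of 3d against 7d, each below the 12.3%, 23.0% and 15.3% of all genes. Ulk1, the kinase that starts autophagy, was lower at 3d than at 7d by 1.32 in MABs-allo and 1.14 in MABs-allo-VEGF (limma, adjusted p = 0.00213 and 0.01). Atg4b, a protease that processes the LC3 proteins, was higher by 1.53 in MABs-allo (limma, adjusted p = 0.036), and this was lost without replicate 1, 2 or 3 of 3d or replicate 9 or 11 of 7d (1.33 to 1.52). Ulk1 in MABs-allo-VEGF was within the threshold on fold change without replicate 2 or 3 of 3d (−0.97 for each).

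**Figure D4:**
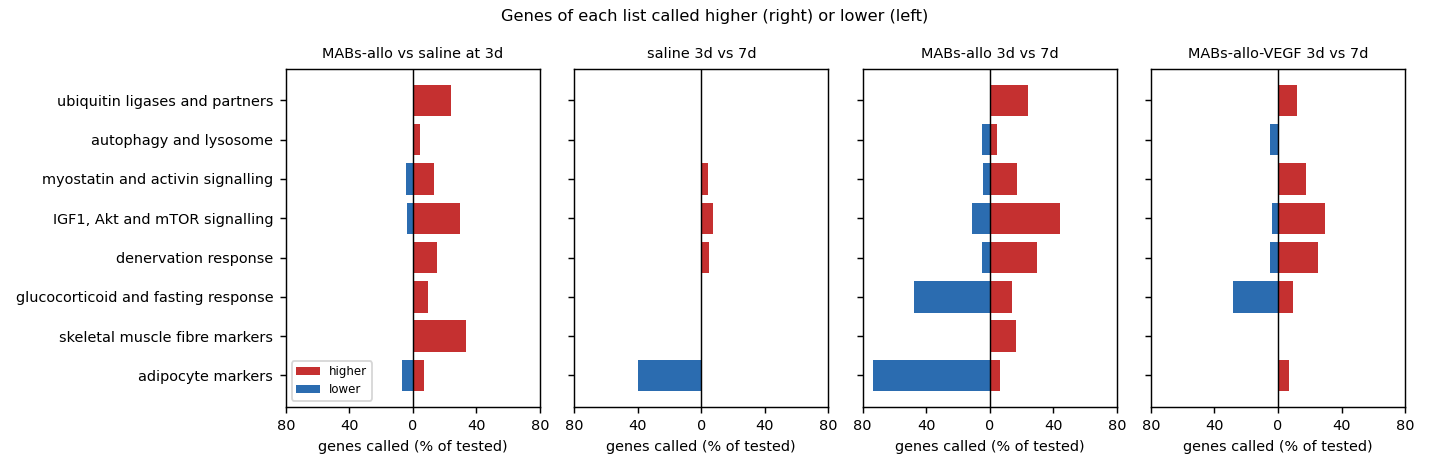
Share of the genes tested of each list that were called higher (right) or lower (left) in 4 comparisons (percent of the list, limma). Calls of the ubiquitin ligases lie on the higher side in 3 panels and are 0 of 25 in saline between the days, and the calls of the glucocorticoid list lie mainly on the lower side at 3d in both cell treatments.

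Over the 24 samples the genes whose log2 levels were most like those of Fbxo32, among 11169 genes with a mean of at least 50 normalized counts, were Baz2b, Apc and Tut4 (Pearson's r of 0.979, 0.977 and 0.976). Foxo1 was most like RGD1311703, Mier1 and Tcf12 (0.967, 0.965 and 0.963). Trim63 was most like Art3, Cebpb and Bcl6 (0.741, 0.707 and 0.707), and Klf15 was most like Aspa, Sybu and Tsc22d3 (0.845, 0.839 and 0.833), the last being a glucocorticoid-induced gene. Gadd45a had Ampd3, Acsl4 and Plpp1 (0.826, 0.688 and 0.675), Foxo3 had Krt4, Leng1 and Nhlrc2 (0.785, 0.781 and 0.778), and Mstn had Tacc2, Epgn and Abra (0.690, 0.667 and 0.625). Among the 7 themselves Fbxo32 was nearest to Foxo1, and Trim63 to Gadd45a and Klf15. The points share libraries and groups, so these likenesses are a description.

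In MABs-allo-VEGF of 7d replicates 6 and 7 came from rats labelled as recovered. Replicate 6 had the highest values of its group for Fbxo32, Trim63, Foxo1, Gadd45a and Klf15. It had the lowest for Mstn, with 14.5 against 21.7 to 31.5, on few reads. For replicate 7 Trim63 had 1666 normalized counts against 1638 and 984 in the rats without that label, Fbxo32 had 1018 against 351 and 763, and Klf15 had 516 against 509 and 378. Foxo1 with 42.8 against 65.2 and 31.5, Gadd45a with 1711 against 2281 and 744, and Mstn with 28.5 against 21.7 and 31.5 lay between those rats, and Foxo3 was at 0 in all 4. With 2 rats on each side no test was made.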

How the data were processed

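Urethral RNA of 24 rats' samples in 6 groups was sequenced from the 3′ end of transcripts (QuantSeq). The values are a signal that the authors deposited as normalized gene counts: reads were trimmed with fastq-mcf and aligned with HISAT2 to Rnor6.0, reads with several matches were discarded, genes were counted with HT-seq Count, and DESeq2 size factors were divided out. Whole reads were recovered from the steps of these values (100.0% whole within 0.001), and 1 read was worth 1.67 to 9.23 normalized counts. Nothing in the labels beyond the replicate numbers describes separate animals, so p-values measure the spread between these samples.

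Genes with a mean of at least 2 normalized counts were tested with limma 3.58.1 in R 4.3.3 (eBayes with trend, two-sided) on log2(value + 1) in 1 fit of the 6 groups. Benjamini-Hochberg adjustment ran over all genes tested. DESeq2 1.42.0 and edgeR 4.0.16 on recovered reads, other pseudocounts, filters, scalings, sample weights and leaving out libraries were alternatives. On simulated data with 200 changed genes of 13847, for MABs-allo against saline at 3d, limma recovered 175 with 12 false calls. Whether the same holds at the spread of the real libraries was not tested. The 7 genes, the gene lists and the rule for named genes (all 7, and up to 3 called genes of smallest adjusted p from each list, Acta1 and Ckm as fibre references, and the 3 genes most correlated with each of the 7) were chosen with earlier results of these data known. Alternatives for list genes were added after the data were seen. The listed genes Gasp1, Sirt1, Mitr, Chrng, Myh1, Myh2, Atp2a1, Ttn, Trp63 and Pecam1 were not analysed here. Calls for the other marker lists in MABs-allo over saline at 3d were 1 of 12 higher for smooth muscle, 1 higher and 1 lower of 15 for adipocytes, 1 of 11 higher for epithelium and 3 of 8 lower for endothelium. These were 8.33%, 13.3%, 9.09% and 37.5% of the lists, beside 12.3% of all genes. Promoters are RefSeq sequences of GRCr8.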

Additional observations from a re-analysis of the deposited data

Results flagged for a closer look

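In 40 groups of 4 samples, 1 for each gene and group with a spread, the gap between an extreme sample and its nearest neighbour was divided by the range of the group and compared with Dixon's 95% critical value. For normally distributed values chance alone exceeds that value in about 1 of 20 groups, and 3 of the 40 exceeded it. Whether these counts are so distributed was not tested, so the rate for them is not known. Trim63 in MABs-allo-VEGF of 7d had its highest sample, replicate 6 from a rat labelled as recovered, far from the other 3 (0.850, with 5521 normalized counts against 984 to 1666). Foxo1 in MABs-allo-VEGF of 3d had its lowest sample, replicate 4, far from the others (0.857, with 236 against 541 to 592). Foxo3 in MABs-allo-VEGF of 3d had its highest sample, replicate 3, far from the others (0.945, with 80.7 against 0 to 4.45).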

How the results depend on the processing

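The number of the 7 genes called in MABs-allo over saline at 3d, 2 in the main result, was 0 in a fit of only the groups compared, 1 in edgeR, and 0 to 3 when 1 library was left out. In MABs-allo-VEGF over saline at 3d, 0 in the main result, it was 1 with sample weights, 2 without both libraries, 1 in DESeq2, and 0 to 1 when 1 library was left out. In saline of 3d against 7d, 0 in the main result, it was 1 with a filter at 10, 2 with sample weights, 2 in DESeq2, 2 in edgeR, and 0 to 2 when 1 library was left out. The causes were not tested. Trim63 in MABs-allo-VEGF over saline at 3d turned to −0.11 in DESeq2 and −0.23 in edgeR, and ran from −0.20 to 0.91 when 1 library was left out. The effect on Fbxo32 of MABs-allo-VEGF at 3d less that at 7d turned to −0.047 in edgeR and ran from −0.23 to 0.84 when 1 library was left out. On leaving out 1 library, Foxo3 in MABs-allo-VEGF over saline at 3d ran from −0.84 to 1.47, and Trim63 in MABs-allo of 3d against 7d from −0.53 to 0.084. Over all genes, MABs-allo over saline at 3d gave 1997 calls in limma, 1920 in DESeq2, 1342 in edgeR, 369 without saline replicate 8 and 5 in a fit of only the groups compared, and MABs-allo-VEGF over saline gave 5, 397, 1, 0 and 0, and 2213 without both libraries. Of 1367 alternatives to 74 fold changes, 1255 kept direction and side of the threshold, 75 lost and 27 gained the call, and 10 turned.

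With the replicate block in MABs-allo-VEGF against MABs-allo at 3d, 0 of the 7 genes were called, as without it. Deviations of samples with the same number correlated at 0.222, 0.151, 0.073 and 0.254. Replicates 1, 2 and 4 matched their own number best, and replicate 3 matched number 2. Whether samples of the same number are paired cannot be told from the labels. The other comparisons share too few numbers for such a fit. Foxo3 and Mstn are limited by depth, with at most 16 and 11 reads in a sample.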
